A study of Mus musculus with 20 samples.

Results

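Transcript levels of germline pluripotent stem cells (gPS, 5 arrays) were compared with those of mouse embryonic fibroblasts (MEF, 3 arrays). These 8 arrays, chosen by their sample titles, belong to a set of 20 mouse arrays, and the comparison covered 18193 genes, each read by its brightest probe set over the 20 arrays. The gPS cells came from OG2 mice (strain B6;CBA-Tg[Pou5f1-EGFP]2Mnn/J), in which the Pou5f1 (Oct4) promoter drives a green fluorescent protein. Germline stem cells of these mice, the unipotent cells that found spermatogenesis, had been plated at about 1000 cells per well on fibroblasts and kept without passage in their own medium. Round colonies of bright green fluorescence that stood out after 3 to 4 weeks were picked by hand and expanded on fibroblasts under embryonic stem cell conditions, so that the promoter of Pou5f1 was read when the cells were chosen. The MEF were prepared from C3H embryos at E12.5 and grown by standard culture. The other 12 arrays held embryonic stem cells (ESC), ESC-like cells from testis (ESC_like), germline stem cells (GSC) and neural stem cells (NSC), 3 arrays each. Cell type, strain, donor stage and medium all differ between gPS and MEF and cannot be told apart.

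Pluripotent cells can give rise to every cell type of the embryo, and they hold this state through a network of transcription factors built around Oct4, Sox2 and Nanog. They grow as tight epithelial colonies joined by E-cadherin. Fibroblasts are mesenchymal cells that lay down collagen and other matrix, pull on it through actin stress fibres and respond to TGF-beta and PDGF. They were the first differentiated cells to be turned into pluripotent cells with defined factors.

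The values were log2 intensities, with a median of 4.97 over all genes and arrays. Levels near or below it may be background signal, and fold changes that start there are imprecise. The gPS arrays correlated across genes with the rest of their group at a mean r of 0.979 to 0.986 and the MEF arrays at 0.997, and r between a gPS and a MEF array was 0.898 to 0.909. The median SD of a gene was 0.23 over the gPS arrays and 0.09 over the MEF arrays. Actb control probes at the 3' end exceeded those at the 5' end, a gauge of RNA integrity, by 0.29 to 0.57 in gPS and 0.12 to 0.17 log2 units in MEF arrays. Group levels are given as mean ± SD (n = 5 gPS and n = 3 MEF arrays) and differences, gPS minus MEF, as log2 values ± limma's moderated SE. A gene was called when its Benjamini-Hochberg adjusted p in the limma fit was under 0.05 and its groups differed by at least 2-fold. Precision is limited by the number of arrays. Separate cultures are not named in the labels, so the spread between samples may be technical. The SE and p-value of a gene rest on a spread pooled over the 6 groups of the 20 arrays, not on gPS and MEF alone. Where the gPS arrays vary more than the other groups, the pooled spread can understate their variation.

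Cell type markers were read first. All 8 pluripotent cell markers were called higher in gPS and all 12 fibroblast markers were called lower. These counts are no independent check of the labels. The lists were chosen with earlier results of these data known, and the promoter of Pou5f1, among the 8, drove the reporter by which colonies were picked. Fibroblast transcripts were measured in every gPS array. On the linear scale, the median of the 12 fibroblast markers lay at 10.6%, 18.7%, 9.22%, 11% and 9.5% of their MEF mean in gPS replicates 1 to 5. The same median was 3.22% to 4.18% in the ESC arrays, 18.1% to 21.5% in the ESC_like arrays, 9.73% to 11% in the GSC arrays and 4.97% to 6.77% in the NSC arrays, and it is close to 100% in MEF by construction. A marker that is dim in MEF cannot fall far on this scale. Col1a1, the main chain of type I collagen and bright in MEF, stood at 3.43% to 4.79% of its MEF mean in gPS and 0.446% to 0.811% in ESC. S100a4, a calcium-binding protein of motile fibroblasts, stood at 1.59% to 5.88% in gPS and 0.229% to 0.307% in ESC. The matrix genes Postn and Dcn were at 6.61 ± 0.795 in gPS and 10.11 ± 0.12 in MEF and at 6.66 ± 0.67 in gPS and 9.21 ± 0.14 in MEF, and Fap, a surface protease of activated fibroblasts, at 3.702 ± 0.22 in gPS and 6.04 ± 0.12 in MEF. Replicate 2 was the highest gPS array in Lum, a collagen-binding proteoglycan, at 77.5% of the MEF mean. With the probe sets of a gene averaged, the difference of Dcn was -1.27 in place of -2.55. That of the marker Pdgfrb was -4.06 in place of -2.197. The shares of single markers thus depend on the probe set chosen. In RNA of whole cultures, fewer cells of a type and less RNA per cell cannot be told apart, and the part that feeder cells had in these values was not tested.

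**Figure D1:**
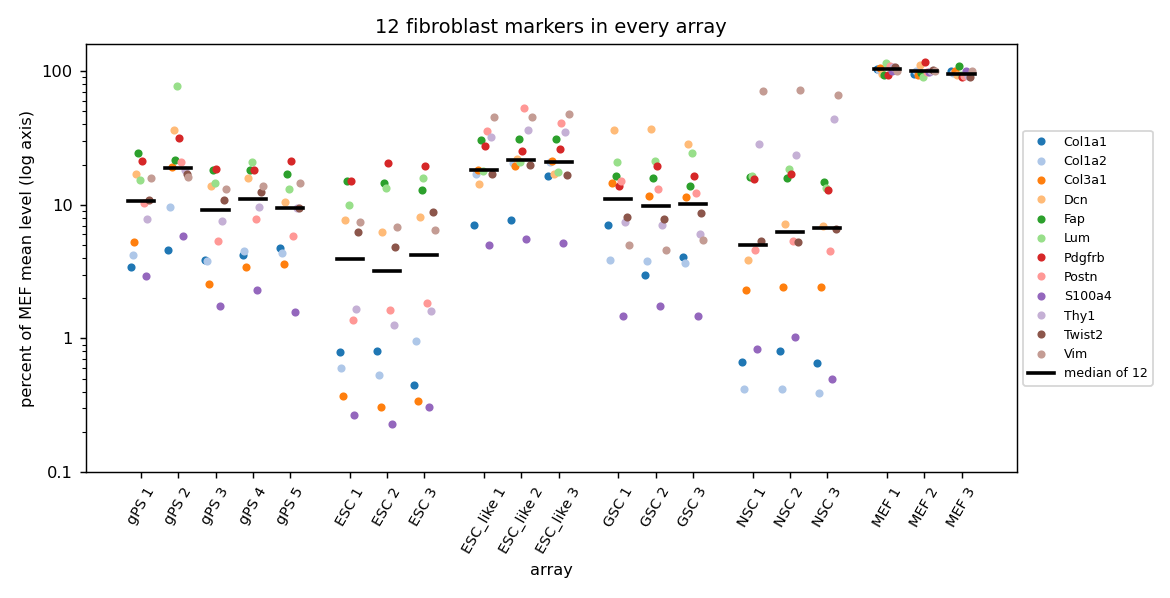
Level of 12 fibroblast markers in each array as a percent of the gene's MEF mean, on a log axis; each point is a gene in an array and the black bars are medians of the 12 markers. The gPS medians run from 9.22% to 18.7%, the ESC medians from 3.22% to 4.18%, and the MEF arrays lie near 100% by construction.

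Over all genes, 4226 of 18193 were called between gPS and MEF (23.2%), 2040 higher in gPS (11.2%) and 2186 lower (12%). These shares stand beside every list count given below. In 5060 genes every gPS array lay above every MEF array (27.8%) and in 3951 every gPS array lay below (21.7%). The median difference over all genes was 0.09 on the log2 scale. Differences of 16-fold or more were found in 111 genes that were higher and 138 that were lower. The 15 largest rises were differences of 6.96 to 9.39, and of these genes only Cdh1, which encodes E-cadherin, and the germ line genes Morc1 and Mageb16 are not on the lists of pluripotent cell genes described next. The 15 largest falls were differences of -5.43 to -6.04, with MEF levels of 8.41 to 13.27. They included the caveola coat gene Cavin2 (6.05 in gPS and 12.096 in MEF), the serine protease gene Prss23 (6.46 in gPS and 12.35 in MEF), the mechanically induced cofactor gene Ankrd1 (5.79 in gPS and 11.57 in MEF) and the sphingosine phosphate receptor gene S1pr3 (5.71 in gPS and 11.41 in MEF). Serpinb2, Tfpi2 and C1qtnf3, secreted proteins of which the first and second inhibit proteases, were at 3.02, 3.19 and 2.74 in gPS, under the median of all values. U90926, Lrrc17 and Gm2115 complete the largest falls together with the matrix and contractile genes given further on, though averaging the probe sets of Lrrc17 reduced its difference to -2.55.

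**Figure D2:**
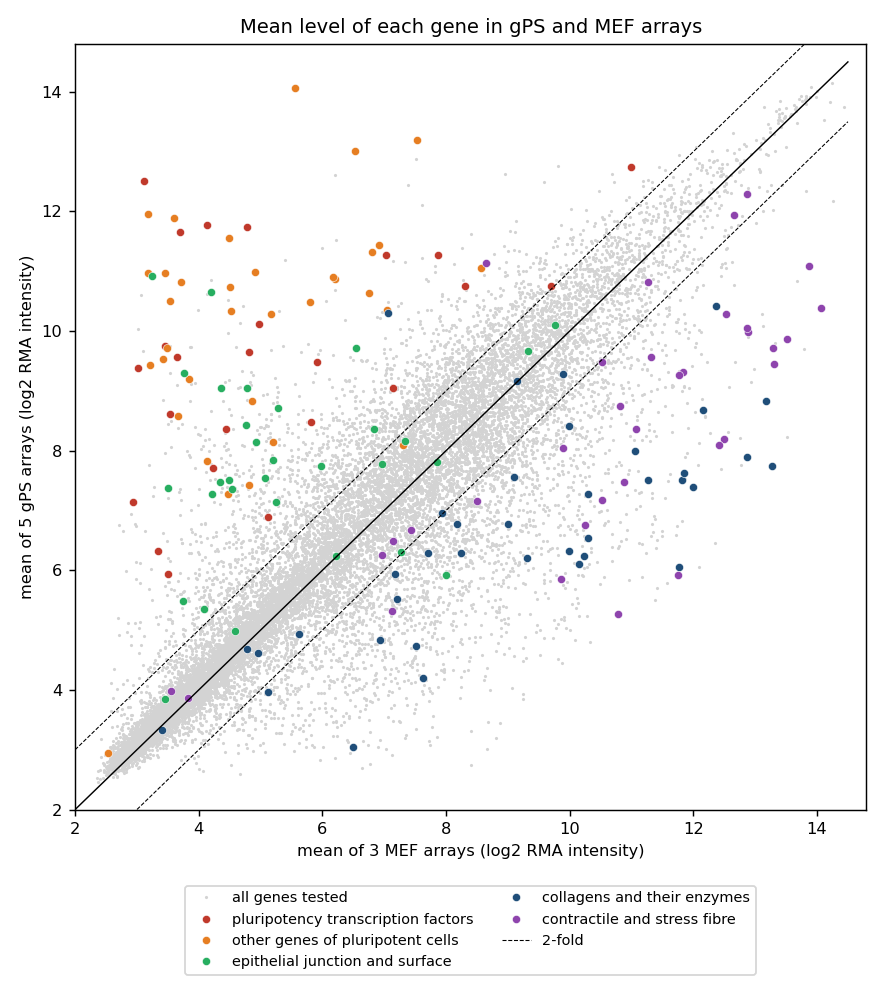
Mean log2 RMA intensity of each of 18193 genes over 5 gPS arrays (vertical axis) and 3 MEF arrays (horizontal axis), with 5 gene lists in colour; the solid line marks equal levels and the dashed lines a 2-fold difference. Pluripotency transcription factors lie above the upper dashed line, the farthest being Pou5f1 at 12.502 in gPS and 3.12 in MEF, and most collagen and contractile genes lie below the lower one.

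All 24 measured pluripotency transcription factors were called higher in gPS, with a median difference of 4.07 against 0.09 over all genes. Pou5f1, which encodes Oct4, was at 12.77, 12.21, 12.401, 12.35 and 12.78 in the gPS arrays and at 3.31, 3.18 and 2.85 in the MEF arrays. Nanog, a homeodomain factor that stabilises self-renewal, was at 11.74, 11.32, 11.799, 11.896 and 11.55 in gPS and 3.66, 3.55 and 3.8998 in MEF. Sox2, which binds DNA together with Oct4, was at 11.51, 12.07, 11.79, 11.996 and 11.35 in gPS and 4.76, 4.62 and 4.97 in MEF. In each of the 3 genes the lowest gPS array stood more than 6 log2 units above the highest MEF array, and the MEF levels lay near or under the median of all values. The differences were 9.39 ± 0.15, 7.96 ± 0.12 and 6.96 ± 0.13 on the log2 scale (limma adjusted p = 9.56e-21, 9.56e-21 and 1.18e-19). Mean ESC levels of the same genes were 12.35, 11.34 and 12.12, each within 1 log2 unit of the gPS mean. Sall4, a zinc finger factor of stem cells and germ cells, differed by 7.64 ± 0.13, Zfp42 (Rex1) by 6.37 ± 0.12 and Utf1, a chromatin-bound factor, by 4.26 ± 0.21. Averaging all probe sets of Utf1 left 2.46.

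The smallest rise on the list was that of Klf4, a zinc finger factor that is also expressed in quiescent fibroblasts and is named here, with the proto-oncogene Myc, after its values were seen. Klf4 was at 11.72, 10.29, 10.63, 10.62 and 10.55 in gPS and 9.66, 9.85 and 9.59 in MEF. Its difference of 1.06 ± 0.23 rested on replicate 1, without which it was 0.82 and no longer called, although no gPS array overlapped a MEF array. Array weights and leaving out replicates 1 and 2 together also ended the call (0.95 and 0.898). Myc was at 9.31, 7.597, 7.84, 7.87 and 7.96 in gPS and 8.899, 8.97 and 8.89 in MEF. Replicate 1 was again the highest gPS array and the only one above the MEF arrays. The difference of -0.81 ± 0.25 was not called, and it was called lower without replicate 1 (-1.103) and without replicates 1 and 2 together (-1.03). Of the 4 classic reprogramming factors, MEF thus had Klf4 and Myc well above the median of all values and Pou5f1 and Sox2 near or under it.

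**Figure D3:**
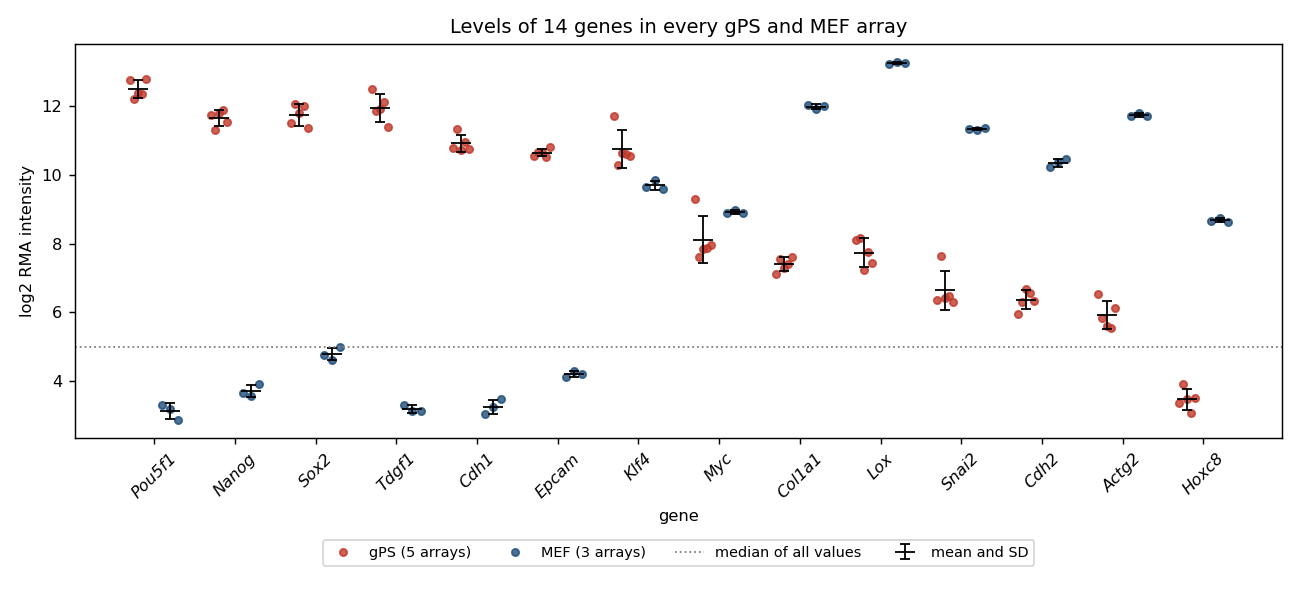
Log2 RMA intensity of 14 genes in each of 5 gPS arrays (left of each pair) and 3 MEF arrays (right), with mean and SD; the dotted line is the median of all values. Pou5f1 to Epcam are high in every gPS array, Klf4 and Myc are close in both groups with gPS replicate 1 as the top point, and Col1a1 to Hoxc8 are high in every MEF array.

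The promoter of Nanog is shown because Oct4 and Sox2 are known to act there on neighbouring sites, and both factors were among the genes that differed most. The RefSeq promoter (build GRCm38.p6, chr6:122707239-122707538, forward strand) covers 250 bases before to 50 after the gene start, and the capitals mark the shortened octamer TTTGCAT and, 1 base further on, the Sox motif ACAATG.
Nanog: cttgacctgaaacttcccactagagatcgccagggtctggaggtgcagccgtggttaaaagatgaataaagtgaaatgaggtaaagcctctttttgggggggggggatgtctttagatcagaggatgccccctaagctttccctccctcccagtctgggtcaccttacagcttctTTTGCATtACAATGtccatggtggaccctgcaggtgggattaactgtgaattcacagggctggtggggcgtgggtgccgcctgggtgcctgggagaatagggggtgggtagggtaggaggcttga
The octamer match begins 75 bases and the Sox match 67 bases before the gene start. Promoters were found for 14368 of the 18193 genes by gene identifier, and the first one listed was used. On either strand, TTTGCAT was present in 3.76% of them and in 3 of 19 promoters of pluripotency transcription factors, 0 of 22 of the other pluripotent cell genes, 4.12% of genes called higher and 3.45% of genes called lower. This shorter form was searched for after the sequence had been seen. The full octamer ATGCAAAT was present in 1.49% of all promoters, 1.76% of those of genes called higher in gPS and 2.01% of those of genes called lower. For ACAATG these shares were 9.25%, 7.03% and 6.39%. These are matches of letters within the window and not measured binding sites.

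Of 34 other genes typical of pluripotent cells, 32 were called higher, 0 lower and 2 not called, with a median difference of 5.24. Tdgf1, the Nodal co-receptor Cripto, was at 12.51, 11.88, 11.91, 12.11 and 11.39 in gPS and 3.31, 3.11 and 3.12 in MEF, a difference of 8.78 ± 0.17. Dppa5a, an RNA-binding protein, reached the highest level of the list, at 14.07 ± 0.08 in gPS and 5.55 ± 0.14 in MEF. L1td1, an RNA-binding protein derived from a retrotransposon, differed by 8.29 ± 0.14. Lin28a, which blocks maturation of let-7 miRNAs, was at 10.97 ± 0.22 in gPS and 3.18 ± 0.17 in MEF, while its paralog Lin28b was at 2.95 ± 0.17 in gPS and 2.53 ± 0.102 in MEF and was not called. Fbxo15, an F-box gene used as a reporter in the first reprogramming experiments, was at 10.97 ± 0.54 in gPS and 3.45 ± 0.17 in MEF. The growth factor gene Fgf4, an autocrine signal of the inner cell mass, was at 9.72 ± 0.26 in gPS and 3.48 ± 0.09 in MEF, and averaging its probe sets gave a difference of 3.85. Dppa2 differed by 7.11 ± 0.2003 and the X-linked gene Trap1a by 6.96 ± 0.11. Gjb5, a connexin, was at 8.09 ± 0.82 in gPS and 7.305 ± 0.09 in MEF and not called, and it was called higher without replicate 2 (1.04), without replicates 1 and 2 together (1.37) and with array weights (1.12).

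Dppa3, a maternal factor that protects DNA methylation in the early embryo, was uneven among the gPS arrays. It was at 7.62, 11.11, 11.596, 11.697 and 11.66 in gPS, with replicate 1 far under the other 4, and at 4.71, 4.45 and 4.37 in MEF. The lowest gPS array still stood above every MEF array, and the difference was 6.23 ± 0.59 (limma adjusted p = 1.11e-08). Its SD over the gPS arrays was 1.76, while the SE rests on the pooled spread.

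Genes of epithelial junctions and surfaces were mostly higher in gPS. Of 31 measured, 21 were called higher, 1 lower and 9 not called, and the median difference was 2.47. The shares were 67.7% higher and 3.23% lower, against 11.2% and 12% of all genes. Cdh1 was at 10.79, 11.35, 10.74, 10.96 and 10.74 in gPS and 3.05, 3.23 and 3.46 in MEF. The groups did not overlap, and the MEF levels lay under the median of all values. Epcam, an adhesion molecule of epithelia and pluripotent cells, was at 10.65 ± 0.11 in gPS and 4.19 ± 0.09 in MEF, and averaging its probe sets gave 3.31. The tight junction genes Cldn7 and Cldn4 differed by 4.699 ± 0.28 and 4.27 ± 0.31. Esrp1, which sets epithelial splicing, was at 6.37, 9.86, 10.28, 9.96 and 10.05 in gPS, replicate 1 again being the lowest, and at 4.06, 3.68 and 3.54 in MEF. The simple epithelial keratin gene Krt18 was at 7.12, 6.96, 8.22, 8.16 and 8.602 in gPS and 7.87, 7.76 and 7.94 in MEF, so that the gPS arrays lay on both sides of the MEF arrays. Cdh3 (P-cadherin) and the plakophilin gene Pkp2 were also not called, at 0.01 and 0.34. Krt19, another simple keratin, was the member called lower, at 5.93 ± 0.35 in gPS and 7.995 ± 0.08 in MEF.

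The cadherins of mesenchymal cells moved the other way. Cdh2 (N-cadherin) was at 5.94, 6.298, 6.69, 6.57 and 6.34 in gPS and 10.23, 10.36 and 10.46 in MEF, and Cdh11 at 6.74 ± 0.77 in gPS and 11.74 ± 0.07 in MEF. The 5 gPS arrays lay below the 3 MEF arrays in both genes, with differences of -3.98 ± 0.16 and -4.999 ± 0.296. Among 26 integrins, cadherins and other surface genes of mesenchymal cells, 1 was called higher, 13 lower and 12 not called, with a median difference of -1.17. The shares were 3.85% higher and 50% lower, against 11.2% and 12% of all genes. The cell adhesion gene Alcam differed by -4.92 ± 0.19 and Thy1, a surface glycoprotein of fibroblasts, by -3.32 ± 0.22. Ncam1 was at -3.56, a call that ended when probe sets of shared suffix, whose names mark several transcripts or possible cross-hybridisation, were left out (-0.37). The member called higher was Icam1, an adhesion molecule for leukocytes, at 7.74 ± 0.32 in gPS and 5.86 ± 0.35 in MEF.

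Transcription factors of mesenchyme and of the epithelial to mesenchymal transition were lower in gPS or not called. Of 36 measured, 0 were called higher, 22 lower and 14 not called, with a median difference of -2.35. The share called lower was 61.1%, against 12% of all genes. Snai2 (Slug), a repressor of Cdh1, was at 6.37, 7.65, 6.43, 6.46 and 6.31 in gPS, with replicate 2 above the other 4, and at 11.35, 11.32 and 11.37 in MEF. The AP-1 factor gene Fosl2 was at 5.37 ± 0.49 in gPS and 10.11 ± 0.05 in MEF (-2.52 as the mean of its probe sets) and Ets1 at 4.69 ± 0.53 in gPS and 9.25 ± 0.08 in MEF. The paired-related homeobox genes Prrx1 and Prrx2, which mark limb and skin mesenchyme, differed by -4.34 ± 0.28 and -4.22 ± 0.23. Twist2, a bHLH factor of dermal fibroblasts, differed by -3.07 ± 0.18. Members not called included factors of particular mesodermal lineages whose MEF means were near or under the median of all values, namely Pax3 (4.76 in gPS and 4.71 in MEF), Tcf21 (3.97 in gPS and 3.88 in MEF) and Meox1 (5.096 in gPS and 5.14 in MEF).

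Hox genes give mesoderm its position along the body axis, and part of them were lower in gPS. Of 33 measured, 0 were called higher, 12 lower and 21 not called, with a median difference of -0.61. The share called lower was 36.4%, against 12% of all genes. The counts called lower were 1 of 9 in cluster A, 4 of 9 in B, 4 of 7 in C and 3 of 8 in D. Leaving out dim genes removes members under 7 in both groups from the test, and 5 members were then called lower. All 193 named genes that this filter kept had the same call as before. Hoxc8 was at 3.36, 3.91, 3.47, 3.07 and 3.49 in gPS, all under the median of all values, and at 8.65, 8.74 and 8.63 in MEF. Hoxc10, Hoxd8, Hoxb2 and Hoxc4 differed by -2.76 ± 0.15, -2.74 ± 0.14, -2.44 ± 0.16 and -2.36 ± 0.199. Hoxb7, Hoxa10 and Hoxd12 were at 3.97, 3.37 and 3.75 in MEF, under the median of all values, and were not called, although the mean of the Hoxa10 probe sets was called lower (-1.05).

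**Figure D4:**
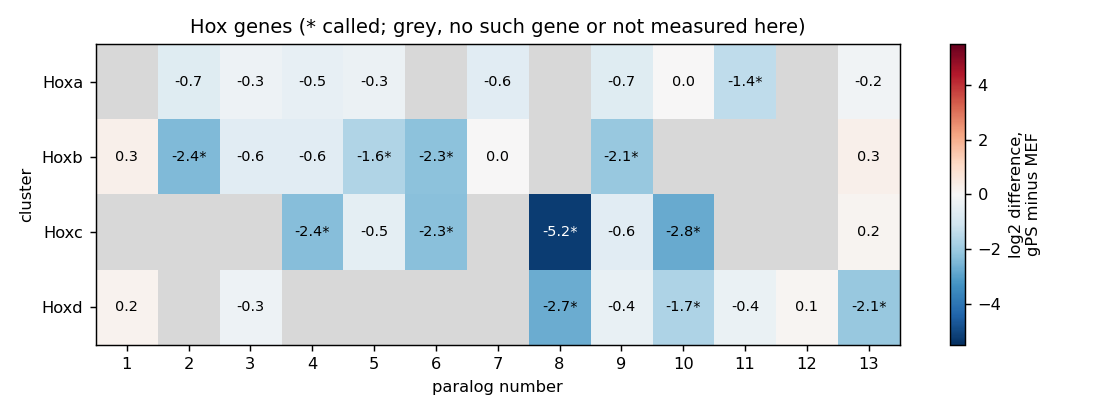
Log2 difference, gPS minus MEF, of each measured Hox gene by cluster (vertical) and paralog number (horizontal); blue is lower in gPS and an asterisk marks a call. Hoxc8 has the deepest blue at -5.21, and no Hox gene is called higher.

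Most collagens and enzymes that process them were lower in gPS, in cultures whose arrays held fibroblast transcripts at the shares given above. Of 38 measured, 1 was called higher, 30 lower and 7 not called, with a median difference of -2.51, where 12% of all genes were called lower. Col1a1 was at 7.12, 7.56, 7.29, 7.41 and 7.61 in gPS and 12.05, 11.92 and 11.998 in MEF, with 5 gPS arrays close together and far under the MEF arrays. Col1a2 and Col3a1, fibrillar partners of Col1a1, were at 8.83 ± 0.54 in gPS and 13.17 ± 0.05 in MEF and at 7.505 ± 1.15 in gPS and 11.82 ± 0.098 in MEF. The short-chain collagen gene Col8a1 and the fibrillar Col5a2 differed by -5.71 ± 0.28 and -4.96 ± 0.24. Lox, the enzyme that cross-links collagen and elastin, was at 8.1004, 8.17, 7.22, 7.76 and 7.44 in gPS and 13.24, 13.29 and 13.27 in MEF, a 46.3-fold higher level in MEF. Col15a1, Col8a2 and the lysyl hydroxylase gene Plod2 were not called (-0.101, -0.07 and 0.01). The member called higher was Col18a1, a basement membrane collagen, at 10.31 ± 0.44 in gPS and 7.06 ± 0.04 in MEF.

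Other matrix genes were mostly lower too. Of 42 matrix glycoproteins and proteoglycans, 4 were called higher, 28 lower and 10 not called, with a median difference of -2.54. The proteoglycan gene Ogn was at 4.81 ± 0.58 in gPS and 10.32 ± 0.04 in MEF, the elastic fibre gene Mfap5 at 5.22 ± 0.14 in gPS and 9.91 ± 0.06 in MEF and the hyaluronan synthase gene Has2 at 5.17 ± 0.58 in gPS and 9.901 ± 0.203 in MEF. Thbs1, a glycoprotein that activates TGF-beta, differed by -4.25 ± 0.16, and Fbln5, which organises elastic fibres, by -5.28 ± 0.24 (-2.78 as the mean of its probe sets). The 4 members called higher (9.52%, against 11.2% of all genes) were the laminin genes Lama1, Lama5 and Lamc1 and the nidogen gene Nid2. Lama1, a laminin chain of the early embryo, was at 8.04, 6.94, 7.28, 7.27 and 7.402 in gPS and 4.36, 4.87 and 4.35 in MEF, with no overlap. Lama5, Nid2 and Lamc1 differed by 2.18 ± 0.15, 2.17 ± 0.17 and 1.06 ± 0.16. The call of Lamc1 ended without replicate 5 (0.99), with array weights (0.998) and with the mean of its probe sets (0.85), while Lama5 was at 1.35 with that mean. Elastin (Eln) and the glypican gene Gpc3 were not called, at -0.13 and -0.04. Mgp, a matrix protein that inhibits calcification and is named after its values were seen, was at 10.06, 11.76, 9.596, 9.95 and 9.85 in gPS and 9.74, 9.67 and 9.54 in MEF, against a mean of 4.38 in ESC, and was not called.

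Proteases that cut the matrix, and their inhibitors, were lower or not called. Of 28 measured, 0 were called higher, 18 lower and 10 not called, with a median difference of -1.78. The share called lower was 64.3%, against 12% of all genes. Adam12, a metalloprotease of mesenchyme, was at 4.51 ± 0.201 in gPS and 9.82 ± 0.09 in MEF, and Adamts1 at 5.54 ± 0.36 in gPS and 10.12 ± 0.04 in MEF. The inhibitor genes Timp3 and Timp1 differed by -4.05 ± 0.14 and -3.78 ± 0.11, and Serpinf1, a secreted inhibitor of vessel growth, by -3.96 ± 0.16. Both proteases and inhibitors were thus among the members called lower.

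Most genes of actin stress fibres and smooth muscle contraction were lower in gPS. Of 34 measured, 1 was called higher, 25 lower and 8 not called, with a median difference of -2.504. The shares were 2.94% higher and 73.5% lower, against 11.2% and 12% of all genes. Actg2, smooth muscle gamma-actin, was at 6.54, 5.83, 5.595, 5.53 and 6.11 in gPS and 11.73, 11.805 and 11.705 in MEF, a difference of -5.82 ± 0.18. Mylk, the myosin light chain kinase, differed by -5.501 ± 0.17 (-3.598 as the mean of its probe sets) and Cnn1, a calponin, by -3.99 ± 0.21. Cav1, which forms caveolae, was at 8.09 ± 0.45 in gPS and 12.41 ± 0.05 in MEF, beside Cavin2 of the same membrane pits at 6.05 ± 0.64 in gPS and 12.096 ± 0.12 in MEF. Vim, the intermediate filament gene of mesenchyme, was at 11.096 ± 0.13 in gPS and 13.87 ± 0.01 in MEF, above the median of all values in both groups. Members not called included Actn4, a non-muscle actinin, at -0.45, and Myocd, the smooth muscle cofactor of Srf, which was at 3.87 in gPS and 3.83 in MEF. Csrp2, a LIM domain protein, was the member called higher, at 11.13 ± 0.34 in gPS and 8.64 ± 0.17 in MEF. Without probe sets of shared suffix no member was called higher.

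Smooth muscle genes are known to be driven by serum response factor (Srf) through the CArG box, which reads CC, then 6 bases that are each A or T, then GG, so the promoters of the list were searched for it. Among genes called lower it was present in 40 of 1738 promoters (2.3%), among genes called higher in 26 of 1650 (1.58%) and in all in 197 of 14368 (1.37%). Among 14 skeletal muscle markers, of which 11 were not called, it was present in 2 of 12 promoters (16.7%). In the contractile list it was present in 4 of 29 promoters (13.8%). The 4 promoters are those of Myl9, Cnn2, Vcl and Srf itself, of which the last 3 are named here for their sequence, after their values were seen. They are given from RefSeq (GRCm38.p6), the first over its 300 bases (chr2:156775214-156775513, forward strand) and the others as stretches around the match, with the CArG box in capitals.
Myl9: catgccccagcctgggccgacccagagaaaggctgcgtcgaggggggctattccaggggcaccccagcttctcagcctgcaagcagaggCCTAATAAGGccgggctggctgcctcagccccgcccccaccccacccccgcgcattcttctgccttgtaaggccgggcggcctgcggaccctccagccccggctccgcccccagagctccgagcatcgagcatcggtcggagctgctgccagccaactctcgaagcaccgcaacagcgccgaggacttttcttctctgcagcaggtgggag
Cnn2 (chr10:79988519-79988578, forward strand): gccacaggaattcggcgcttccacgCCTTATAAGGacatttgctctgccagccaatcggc
Vcl (chr14:20929148-20929205, forward strand): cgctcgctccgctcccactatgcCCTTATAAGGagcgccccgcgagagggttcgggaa
Srf (chr17:46556210-46556269, reverse strand): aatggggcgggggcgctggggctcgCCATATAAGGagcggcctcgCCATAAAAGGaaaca
The match begins 161 bases before the gene start in Myl9, 56 in Cnn2 and 227 in Vcl, and Srf has a match at 82 and another at 62. Myl9, the regulatory light chain of myosin, was at 7.72, 7.81, 8.34, 8.58 and 8.54 in gPS and 12.59, 12.47 and 12.44 in MEF. All 5 gPS arrays were lower than all 3 MEF arrays, a difference of -4.31 ± 0.198. Cnn2, a calponin of non-muscle cells, differed by -2.52 ± 0.28 and Vcl, which anchors actin at focal adhesions, by -2.49 ± 0.16. Srf was at 7.15 ± 0.44 in gPS and 8.495 ± 0.08 in MEF and called lower at -1.34, but the mean of its probe sets was -0.61 and the value without probe sets of shared suffix 0.12, so neither its call nor its sign holds in every setting.

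TGF-beta and BMP signals steer fibroblasts to make matrix, and genes of this pathway were mostly lower in gPS. Among 31 TGF-beta and BMP pathway genes, 1 was called higher, 21 lower and 9 not called, with a median difference of -1.88. The shares were 3.23% higher and 67.7% lower, against 11.2% and 12% of all genes. Of the ligands and the proteins that hold them, Tgfb3 was at 4.58 ± 0.14 in gPS and 9.53 ± 0.11 in MEF, the activin subunit gene Inhba at 6.59 ± 0.23 in gPS and 11.71 ± 0.04 in MEF and the latent TGF-beta binding gene Ltbp2 at 4.86 ± 0.23 in gPS and 9.59 ± 0.16 in MEF. Fst, which traps activin, was at 6.43, 6.18, 6.61, 6.64 and 6.36 in gPS and 11.16, 11.17 and 11.19 in MEF. Averaging probe sets left -2.53 for Inhba and -2.05 for Ltbp1, whose difference was -3.92 ± 0.17. The receptor gene Acvr2b, which binds Nodal and activin, was the member called higher, at 7.92 ± 0.398 in gPS and 4.51 ± 0.33 in MEF (1.84 as the mean of its probe sets). Skil, a repressor of Smad proteins, was at 0.16 and not called.

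Of 44 genes listed for PDGF, FGF, IGF and Wnt signalling, 5 were called higher, 26 lower and 13 not called, with a median difference of -1.19. Beside ligands and receptors of these pathways, the list held other genes, among them the cytokine genes Csf1, Il6 and Lif. Pdgfra, the PDGF receptor that marks fibroblasts, was at 4.79, 5.27, 4.72, 4.66 and 4.87 in gPS and 9.89, 9.54 and 9.77 in MEF. The ligand genes Csf1, Il6 and Wnt5a differed by -4.85 ± 0.15, -4.58 ± 0.15 and -3.99 ± 0.25. Pdgfrb was at 5.17 ± 0.33 in gPS and 7.37 ± 0.21 in MEF, and the mean of its probe sets gave -4.06. The 5 members called higher (11.4%, against 11.2% of all genes) included Igfbp2, an IGF-binding protein, at 10.98 ± 0.69 in gPS and 7.82 ± 0.06 in MEF, the ligand gene Fgf17 at 6.896 ± 0.5003 in gPS and 4.91 ± 0.14 in MEF and the Wnt target Axin2 at 1.86 (1.22 as the mean of its probe sets). Lif, whose protein keeps mouse pluripotent cells undifferentiated, was at 5.28 in gPS and 5.31 in MEF, and Fgf5, a gene of the primed epiblast, at 4.59 in gPS and 4.69 in MEF. Neither was called.

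Of 40 chemokine, complement and interferon genes, 2 were called higher, 16 lower and 22 not called, with a median difference of -0.47. The shares were 5% higher, which is under the 11.2% of all genes, and 40% lower, against 12%. Among members still tested with dim genes left out, 9 were lower. The chemokine genes Cxcl5, Cxcl12, Cxcl14 and Ccl7 differed by -5.09 ± 0.15, -4.295 ± 0.19, -3.78 ± 0.29 and -3.74 ± 0.15. Averaging its probe sets left -2.86 for Cxcl12. Ptgs2, the inducible cyclooxygenase, was at 6.66, 8.02, 7.87, 7.98 and 7.12 in gPS and 11.65, 11.92 and 12.03 in MEF. Ifitm1, an interferon-inducible membrane protein that is also expressed in germ cells, went against them at 9.72, 11.53, 12.12, 11.99 and 12.23 in gPS and 6.304, 6.09 and 6.26 in MEF. Replicate 1 was the lowest of the gPS arrays and still above the MEF arrays. Bst2, a membrane protein that tethers viruses and the other member called higher, differed by 1.22 ± 0.14.

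Genes of the cell cycle and DNA replication were higher in gPS or not called, with 4 exceptions. Of 45 measured, 19 were called higher, 4 lower and 22 not called, with a median difference of 0.84, and the largest rise was 2.14. The genes that rose most act at replication origins: Mcm10 was at 9.69 ± 0.14 in gPS and 7.54 ± 0.19 in MEF, Gins1 at 9.95 ± 0.19 in gPS and 7.88 ± 0.09 in MEF, the licensing gene Cdt1 at 12.35 ± 0.21 in gPS and 10.48 ± 0.03 in MEF and the origin recognition gene Orc1 at 9.04 ± 0.07 in gPS and 7.15 ± 0.09 in MEF. Averaging probe sets left 1.32 for Gins1, and 1.28 was found for Mcm10 without probe sets of shared suffix. Pole, the leading strand polymerase, differed by 1.84 ± 0.11. The members called lower (8.89%, against 12% of all genes) were Ccnd2, Ccne2, Ccnd1 and Cdk6. Ccnd2, a D-type cyclin, was at 8.63, 9.23, 8.12, 8.53 and 8.296 in gPS and 12.16, 12.24 and 12.18 in MEF. The cyclin genes Ccne2 and Ccnd1 and the kinase gene Cdk6 differed by -2.04 ± 0.18, -1.57 ± 0.18 and -1.0999 ± 0.18. The call of Cdk6 ended without replicate 1 (-0.94), without replicates 1 and 2 together (-0.87), with array weights (-0.92) and with the mean of its probe sets (-0.93). The mitotic kinase gene Cdk1 and the ribonucleotide reductase gene Rrm2 were not called, at 0.16 (95% confidence interval -0.04 to 0.36) and -0.24 (-0.54 to 0.06). The letters CCAAT were present on either strand in 24 of 33 promoters of this list (72.7%) and in 38.2% of all promoters. They were in 40.8% of promoters of genes called higher and 35.2% of those called lower. High shares were not limited to this list, with 59.1% for DNA repair genes and 61.9% for mesenchymal transcription factors, which were mostly lower. The lowest share of a list was 16.7%, in mesenchymal integrins and cadherins.

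Of 28 CDK inhibitor and p53 target genes, 3 were called higher, 11 lower and 14 not called, with a median difference of -0.69. Those called higher were 10.7% and those lower 39.3%, against 11.2% and 12% of all genes. Cdkn1a (p21), a p53 target that halts the cell cycle, was at 8.99, 9.15, 9.44, 9.49 and 9.597 in gPS and 11.72, 11.92 and 11.68 in MEF. Cdkn2b, Cdkn2c and the pocket protein gene Rbl2, which also restrain G1, differed by -2.51 ± 0.15, -2.05 ± 0.17 and -1.94 ± 0.16, and the death receptor gene Fas by -2.03 ± 0.22. The p53 targets Gadd45a and Pmaip1 (Noxa) were called higher, at 9.21 ± 0.11 in gPS and 6.53 ± 0.04 in MEF and at 8.37 ± 0.68 in gPS and 6.55 ± 0.04 in MEF. DNA repair genes were nearly all higher: of 25 measured, 22 were called higher, 0 lower and 3 not called, with a median difference of 1.81. The share called higher was 88%, against 11.2% of all genes. The mismatch repair gene Msh6 was at 11.79, 11.604, 11.47, 11.49 and 11.77 in gPS and 8.49, 8.32 and 8.42 in MEF. Parp1, Ung, the Ku subunit gene Xrcc5 and the Fanconi gene Fancd2 differed by 2.64 ± 0.11, 2.59 ± 0.13, 2.54 ± 0.104 and 2.48 ± 0.12, the last being 1.38 as the mean of its probe sets. Lig3 and Fancb were not called (0.38 and -0.398).

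Regulators of DNA methylation were mostly higher in gPS. Of 16 measured, 12 were called higher, 1 lower and 3 not called, with a median difference of 1.62. Dnmt3l, the cofactor of the de novo methyltransferases, was at 11.56 ± 0.15 in gPS and 4.48 ± 0.31 in MEF, and the methyltransferase gene Dnmt3b at 10.98 ± 0.45 in gPS and 4.902 ± 0.19 in MEF. Tet1, which oxidises 5-methylcytosine, was at 10.45, 10.7004, 10.78, 10.66 and 10.52 in gPS and 3.85, 4.29 and 4.27 in MEF. The gPS arrays did not overlap the MEF arrays, and the mean of the Tet1 probe sets gave 4.098. Tet2 and the remodeller gene Hells differed by 2.63 ± 0.19 and 1.92 ± 0.11, and Tet3 was not called (-0.15). Mbd2, which binds methylated DNA, was called lower at -1.68.

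Polycomb and other chromatin genes moved in both directions. Of 46 measured, 27 were called higher, 4 lower and 15 not called, with a median difference of 1.26. Those called lower were 8.7%, against 12% of all genes. Among subunits of Polycomb repressive complex 1, Phc1 was at 11.32 ± 0.35 in gPS and 6.797 ± 0.07 in MEF and Cbx7 at 8.98 ± 0.19 in gPS and 5.28 ± 0.21 in MEF, both higher, while Bmi1 was at 5.04, 6.21, 6.27, 6.45 and 6.22 in gPS and 9.38, 9.51 and 9.35 in MEF and Phc2 at 7.75 ± 0.34 in gPS and 10.03 ± 0.04 in MEF, both lower. Bmi1 was lowest in replicate 1. The complex 2 partners Jarid2 and Mtf2 differed by 4.52 ± 0.13 and 2.71 ± 0.09, and the histone demethylase gene Kdm3a by 3.28 ± 0.14. Smarca2 (Brm), an ATPase of the SWI/SNF remodeller, was called lower at -3.05, a call that ended without probe sets of shared suffix (-0.23). Averaging probe sets left 1.73 for Cbx7, and -1.21 was found for Phc2 without probe sets of shared suffix.

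Of 33 genes of glycolysis, one-carbon metabolism and mitochondria, 18 were called higher, 1 lower and 14 not called, with a median difference of 1.18. Slc2a3, the high-affinity glucose transporter of the early embryo, was at 12.76, 12.55, 13.27, 13.08 and 13.36 in gPS and 6.55, 6.61 and 6.43 in MEF. Every gPS array stood more than 5 log2 units above every MEF array. Gldc, the glycine decarboxylase of one-carbon metabolism, was at 10.43 ± 0.61 in gPS and 4.72 ± 0.17 in MEF. Pdk1, a kinase that inhibits pyruvate dehydrogenase, differed by 4.03 ± 0.17, Ldhb by 2.999 ± 0.303 and Aldoc by 3.08 ± 0.32. Aldoc stood at 0.397 and lost its call without probe sets of shared suffix. Phgdh, the first enzyme of serine synthesis, was called lower at -1.14 ± 0.13, or -0.93 and not called as the mean of its probe sets. The fatty acid transport gene Cpt1a was not called (-0.18).

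Heat shock and lysosome genes stood near the centre of all genes. Of 23 heat shock proteins and chaperones, 3 were called higher, 4 lower and 16 not called, with a median difference of 0.06. Those called higher were 13% and those lower 17.4%, against 11.2% and 12% of all genes. The inducible genes Hspa1b and Hspa1a and the cochaperone gene Bag3 differed by -2.61 ± 0.14, -1.49 ± 0.14 and -1.82 ± 0.14, while Hspb1 and the clathrin uncoating gene Dnajc6 were higher by 1.302 ± 0.19 and 3.17 ± 0.19. Cryab, a small heat shock protein of muscle and lens, was at -3.704, but 0.19 without probe sets of shared suffix, which turns its sign. Of 27 lysosome and autophagy genes, 1 was called higher, 5 lower and 21 not called, with a median difference of -0.13. Here the shares were 3.7% higher and 18.5% lower. Lamp2, a membrane protein of lysosomes, the protease gene Ctsh and the lipase gene Lipa differed by -2.32 ± 0.21, -2.36 ± 0.1998 and -1.75 ± 0.17. Mcoln1, an ion channel of lysosomes, was called higher at 1.16, or 0.996 and not called as the mean of its probe sets. Dnajc6 was at 1.24 with that mean.

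Imprinted genes, which are expressed from the maternal or the paternal copy, were split evenly: of 32 measured, 10 were called higher, 10 lower and 12 not called, with a median difference of -0.12. The shares were 31.25% higher and 31.25% lower, against 11.2% and 12% of all genes. From the Dlk1-Meg3 region, the noncoding RNA genes Rian and Meg3 were at 5.03 ± 0.21 in gPS and 9.79 ± 0.296 in MEF and at 7.61 ± 0.78 in gPS and 10.94 ± 0.15 in MEF, and Dlk1 at 5.38 ± 0.41 in gPS and 8.98 ± 0.33 in MEF. Averaging probe sets left -2.75, -1.63 and -1.81, and the call of Dlk1 ended without probe sets of shared suffix (-0.02). The growth factor gene Igf2 was at 7.58, 8.25, 8.295, 8.57 and 8.76 in gPS and 12.29, 12.33 and 12.21 in MEF. Grb10, an inhibitor of insulin signalling, was at 7.199, 9.23, 7.34, 7.53 and 7.47 in gPS, replicate 2 being the highest, and at 11.99, 12.16 and 12.09 in MEF. Both were lower in every gPS array than in any MEF array, with differences of -3.99 ± 0.24 and -4.33 ± 0.297. Peg10, Phlda2 and Mest, of which the first and second act in the placenta, differed by 2.82 ± 0.14, 2.23 ± 0.43 and 2.19 ± 0.11, with Phlda2 at 1.44 without replicates 1 and 2. Kcnq1ot1, the noncoding RNA of its domain, differed by 1.74 and was not called as the mean of its probe sets (0.71). Plagl1 was not called (-0.06). Without probe sets of shared suffix 6 members were called lower.

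The gPS cells descend from germ cells, and germ cell genes were compared for that reason. Of 30 measured, 15 were called higher, 0 lower and 15 not called, with a median difference of 0.81. The share called higher was 50%, against 11.2% of all genes. Among members still tested with dim genes left out, 2 were called higher. Rnf17, of germ granules, was at 6.76 ± 0.05 in gPS and 2.72 ± 0.196 in MEF (2.05 as the mean of its probe sets), Tex14, of the bridges between germ cells, at 7.52 ± 0.29 in gPS and 4.27 ± 0.25 in MEF, and the synaptonemal complex gene Sycp3 at 6.93 ± 0.502 in gPS and 3.699 ± 0.12 in MEF. The piRNA pathway gene Mael was at 6.72, 4.77, 4.99, 4.63 and 4.88 in gPS, highest in replicate 1, and at 2.92, 2.59 and 2.58 in MEF. Piwil2 differed by 1.92 ± 0.18, and the mean level of Piwil2 was 11.38 in GSC. Ddx4, the germ cell RNA helicase, was at 7.23 ± 0.56 in gPS and 7.17 ± 0.04 in MEF, and Brdt and Tdrd1 at -0.04 and -0.04. None of these 3 was called.

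All 4 genes of the Y chromosome and Xist list were called lower in gPS. Eif2s3y, on the Y chromosome, was at 4.51, 7.39, 4.21, 3.67 and 5.85 in gPS and 8.99, 8.88 and 8.98 in MEF. The gPS arrays ranged widely, replicate 2 being the highest and replicate 4 the lowest. Kdm5d and Uty, also on the Y chromosome, differed by -2.69 ± 0.19 and -1.53 ± 0.23, and Xist, the RNA that silences an X chromosome in female cells, was at 6.27, 7.41, 6.14, 6.21 and 6.41 in gPS and 8.42, 7.996 and 8.11 in MEF. The labels give no sex. Averaging probe sets left -1.92, -1.02 and -0.56 for the Y genes, which ends the call of Uty, and Xist was at -3.09 without probe sets of shared suffix. With dim genes left out, 2 of the 4 were called lower.

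Markers of other cell types that a culture could hold were read in both groups. The counts below stand beside 11.2% of all genes called higher and 12% called lower. Among macrophage markers, 0 of 12 were called higher and 3 lower, the summed level running from 8.61 to 9.89 (log2) in gPS and 9.81 to 10.04 in MEF. The called ones were Csf1r (5.86 in gPS and 7.55 in MEF), Lyz2 (6.35 in gPS and 8.33 in MEF) and Cd14 (4.701 in gPS and 6.68 in MEF). The defining markers Ptprc (CD45, 3.24 in gPS and 4.22 in MEF) and Adgre1 (5.27 in gPS and 5.7997 in MEF) were not called. The mean of the Csf1r probe sets, -0.71, was not called, and Ptprc was called lower with quantile normalization (-1.03), without MEF replicate 1 (-1.08) or without gPS replicate 2 (-1.05), a setting in which 5 macrophage markers were lower. Among skeletal muscle markers, 1 of 14 was called higher and 2 lower, the summed level running from 8.73 to 9.05 (log2) in gPS and 11.44 to 11.57 in MEF. Acta1, skeletal actin, held most of the MEF sum, at 6.297 in gPS and 11.24 in MEF, while the muscle regulators Myod1 (5.01 in gPS and 4.7998 in MEF) and Myog (4.599 in gPS and 4.51 in MEF) were near the median of all values. Among adipocyte markers, 0 of 7 were called higher and 4 lower, the summed level running from 7.78 to 8.48 (log2) in gPS and 10.44 to 10.51 in MEF. They were led by Fabp4 (-3.86, or -0.08 without probe sets of shared suffix), Pparg (-2.88) and Lpl (-2.71). Among endothelial markers, 2 of 12 were called higher and 2 lower, the summed level running from 8.85 to 9.36 (log2) in gPS and 9.36 to 9.44 in MEF, with Ecscr at 4.03 in gPS and 7.73 in MEF and Cdh5 at 4.22 in gPS and 3.91 in MEF. Among neural markers, 2 of 11 were called higher and 3 lower, the summed level running from 10.79 to 10.99 (log2) in gPS and 10.79 to 10.92 in MEF, with Map2 at -3.57 (-1.66 as the mean of its probe sets) and Sox1 at 0.24. Of primitive and visceral endoderm markers 1 was called higher and 2 lower of 12, and the defining factors Gata4 (4.63 in gPS and 4.57 in MEF) and Gata6 (4.95 in gPS and 5.33 in MEF) were near the median of all values. Of epidermal markers Sfn alone was called, at 8.16 in gPS and 4.94 in MEF, and of cartilage and bone markers 2 of 10 were lower, led by Col2a1 at 5.504 in gPS and 8.18 in MEF. The genes named from the endothelial, skeletal muscle, neural and endoderm lists do not show their rises. The largest rises there were 1.19, 1.46, 1.38 and 1.104, and the largest falls -3.70, -4.95, -3.57 and -4.87. The median differences of these 4 lists were 0.22, 0.06, 0.24 and 0.07. The part of such cells in the differences was not tested.

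The gPS arrays were not alike, and replicates 1 and 2 departed most often. Olig1, a factor of oligodendrocyte precursors, was at 9.44, 8.05, 3.82, 4.38 and 4.12 in gPS and 3.72, 3.53 and 3.84 in MEF, high in replicates 1 and 2 alone. Its difference of 2.27 was called, but not without replicate 1 (1.397), without replicate 2 (1.74), without both (0.41), without any 1 MEF array, with a variance trend and robust fit, or with gPS and MEF arrays alone. The placental homeobox gene Rhox6 was at 4.48, 6.95, 9.04, 8.97 and 9.44 in gPS and 4.91, 4.55 and 4.01 in MEF. Sfmbt2, a Polycomb-related gene of the placenta, was at 5.79, 8.91, 10.49, 10.204 and 10.34 in gPS and 4.78, 4.84 and 4.89 in MEF (2.63 as the mean difference of its probe sets). Baiap2l1, which bends membranes, was at 6.77, 10.34, 11.33, 11.73 and 10.96 in gPS, the iron exporter gene Slc40a1 at 5.09, 8.17, 9.67, 9.67 and 9.602, and Klhl13, an adaptor of a ubiquitin ligase, at 7.88, 11.39, 11.34, 11.64 and 11.19, with MEF means of 6.93, 5.61 and 8.33. In these 5 genes replicate 1 was the lowest gPS array, as in Dppa3 and Esrp1. Lyz1, a lysozyme, was at 6.37, 10.09, 5.41, 6.01 and 7.17 in gPS, highest in replicate 2, and 9.31, 9.23 and 9.01 in MEF, and its difference of -2.18 became 0.15 without probe sets of shared suffix and was not called with gPS and MEF arrays alone. Without replicates 1 and 2 together, 4377 genes were called, 2216 higher and 2161 lower, a setting chosen after seeing the data.

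**Figure D5:**
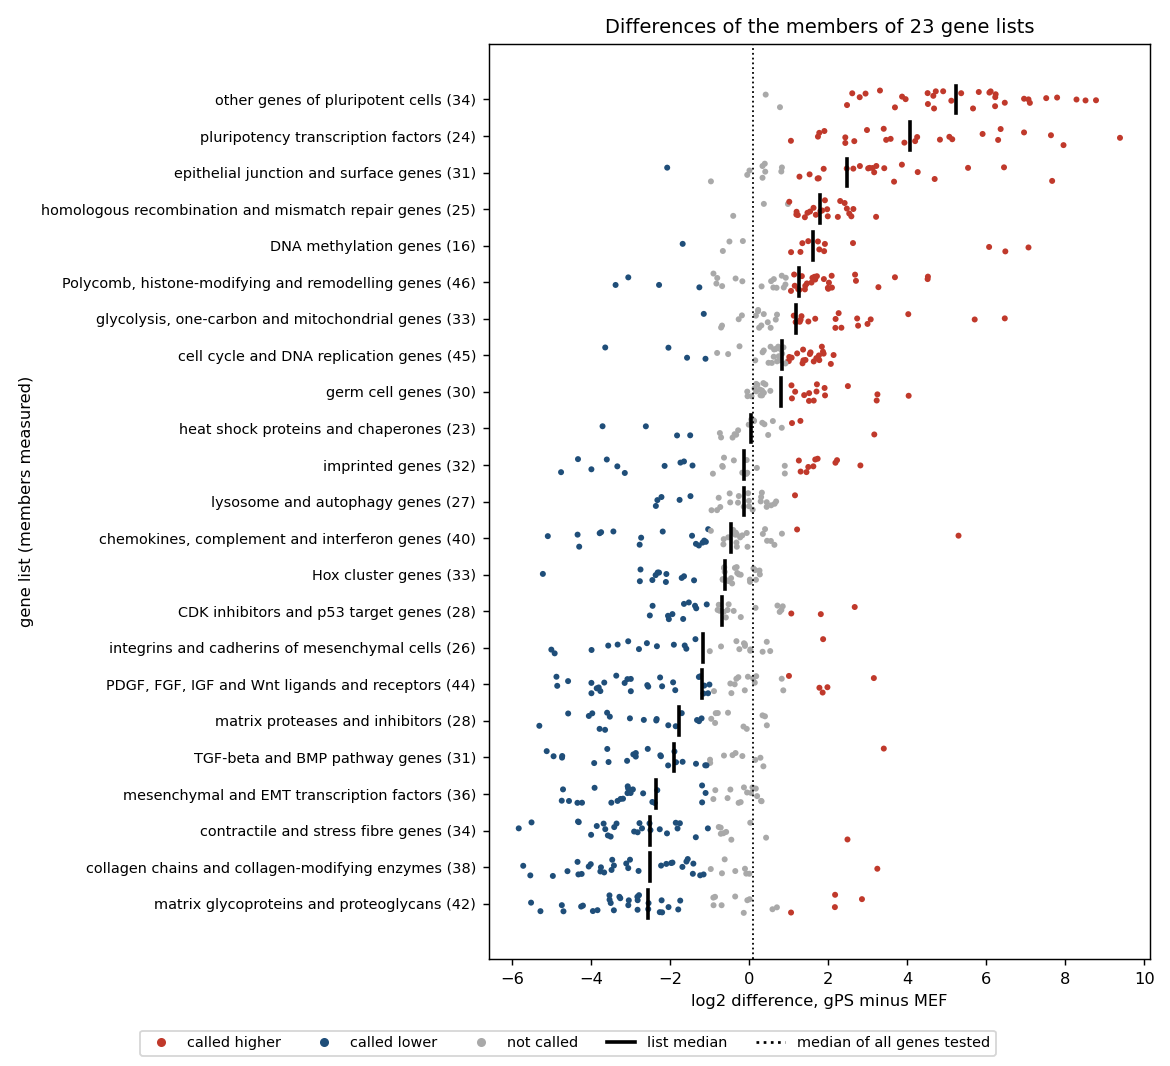
Log2 difference, gPS minus MEF, of each measured member of 23 gene lists (points), with list medians (bars) and the median of all genes (dotted line); red points were called higher, blue lower and grey not called. The medians run from -2.54 for matrix glycoproteins to 5.24 for genes of pluripotent cells.

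The other cell types show where the called genes were highest. Of the 2040 genes called higher in gPS than in MEF, 666 had their highest group mean in gPS (32.6%), 530 in ESC, 540 in GSC, 223 in ESC_like and 81 in NSC. Of the 2186 genes called lower, 1488 had it in MEF (68.1%), 484 in NSC and 175 in GSC. MEF could not be highest among genes called higher, nor gPS among genes called lower, so these shares partly restate how the genes were chosen. By chromosome, leaving aside Y (3 of 9 genes called lower), the share called lower was 17.9% on chromosome 3, 17% on X and 15.8% on 13, against 8.03% on 17, and the share called higher was 13.8% on 8 and 13.7% on 17, against 7.98% on 13. The promoters of genes called higher had a median CpG ratio (observed over expected) of 0.766, those of genes called lower 0.712 and all promoters 0.675. The TATA motif TATAAA was present in 6.48%, 10% and 9.86% of these promoters. These shares are descriptions without a test.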

How the data were processed

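Each array is an Affymetrix mouse expression array hybridised with labelled RNA of 1 sample. The labels' protocols give 1 µg of RNeasy-extracted RNA and One-Cycle labelling. The authors deposited log2 values normalized by RMA, per the submitters' processing notes, and whether the 20 arrays were normalized together is not given in the sources used here. The file holds 45101 probe sets. Leaving aside 64 controls, 34945 carry 1 gene symbol, 932 several and 9160 none, and each of 18193 genes was read by its probe set of highest mean level over all arrays. limma 3.58.1 (R 4.3.3) fitted 6 group means to the 20 arrays (lmFit, eBayes), with Benjamini-Hochberg adjustment over all genes. A call needed an adjusted p under 0.05 and 2-fold. The fit was tested on simulated data that gave all groups the same spread per gene. The median SD of the real arrays was 0.23 in gPS and 0.09 in MEF, so that test does not cover unequal spread. Promoters came from RefSeq (GRCm38.p6) by gene identifier.

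Named genes were marker genes, up to 5 called rises, 5 called falls and 3 uncalled genes of each list, the 15 largest rises and falls without overlap, and up to 10 called genes of largest SD over gPS; exceptions are stated. The comparison, gene lists and members were chosen with earlier results of these data known. Alternatives were array weights, quantile normalization, median centring, a robust fit with a variance trend, other arrays in the fit, other probe set rules, a filter on genes under 7 in both groups, other thresholds, a replicate block and each array left out.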

Additional observations from a re-analysis of the deposited data

Results flagged for a closer look

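In 27 of the named genes 1 gPS array stood apart from the other 4, its gap to the nearest being a larger share of the group's range than Dixon's 95% critical value for 5 samples. Chance flags about 1 in 20 groups, but the named genes share arrays, up to 10 were chosen for a large spread over the gPS arrays, and Klf4, Myc and Mgp were named after their values were seen, so the number found is a description and not a test. Replicate 1 lay above the others in log2 level for Klf4 at 11.72 (10.29 to 10.63 in the others), Mael at 6.72 (4.63 to 4.99 in the others), Myc at 9.31 (7.597 to 7.96 in the others) and Myocd at 4.47 (3.59 to 3.81 in the others). Replicate 1 lay below the others in log2 level for Baiap2l1 at 6.77 (10.34 to 11.73 in the others), Bmi1 at 5.04 (6.21 to 6.45 in the others), Dppa3 at 7.62 (11.11 to 11.697 in the others) and Esrp1 at 6.37 (9.86 to 10.28 in the others). It lay below them as well for Gldc at 9.37 (10.52 to 10.89 in the others), Ifitm1 at 9.72 (11.53 to 12.23 in the others), Klhl13 at 7.88 (11.19 to 11.64 in the others) and Lamp2 at 8.01 (9.15 to 9.34 in the others). Replicate 2 lay above the others in log2 level for Cavin2 at 7.19 (5.66 to 5.902 in the others), Col1a2 at 9.78 (8.44 to 8.701 in the others), Cxcl12 at 7.18 (6.06 to 6.35 in the others) and Cxcl5 at 3.56 (3.21 to 3.29 in the others). It lay above them as well for Fbln5 at 7.01 (5.46 to 5.77 in the others), Grb10 at 9.23 (7.199 to 7.53 in the others), Kdm5d at 3.54 (2.82 to 2.98 in the others) and Lum at 6.21 (3.64 to 4.32 in the others). It lay above them as well for Mgp at 11.76 (9.596 to 10.06 in the others), Pdgfrb at 5.72 (4.91 to 5.15 in the others), Snai2 at 7.65 (6.31 to 6.46 in the others) and Thy1 at 7.95 (6.68 to 7.03 in the others). It lay above them as well for Xist at 7.41 (6.14 to 6.41 in the others). Replicate 2 lay below the others in log2 level for Peg10 at 6.19 (6.55 to 6.68 in the others). Replicate 4 lay below the others in log2 level for Fas at 3.397 (4.49 to 4.72 in the others).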

How the results depend on the processing

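The numbers of genes called between gPS and MEF stayed within 1.5 times of 4226, 2040 higher and 2186 lower under every alternative tried but the stricter fold and the test of single probe sets. At 4-fold in place of 2-fold there were 1504 called, 576 higher and 928 lower, and with probe sets tested in place of genes 7443 called, 3310 higher and 4133 lower. Leaving out each array in turn gave 4187 to 4317 genes called, 1972 to 2124 higher and 2152 to 2216 lower. Averaging the probe sets of a gene gave 3507 called, 1665 higher and 1842 lower, and leaving out dim genes gave 3281 called, 1591 higher and 1690 lower. Same-numbered gPS and MEF arrays did not deviate together (correlations of -0.00614, 0.00917 and 0.032), so the numbers do not pair them. With the replicate number as a block there were 4155 called, 1948 higher and 2207 lower, no named gene changed its call, and the block moved Olig1 to 3.41. Of 212 named genes that kept a value, the sign turned in 3 without probe sets whose suffix marks cross-hybridisation or shared transcripts: Srf (0.12), Cryab (0.19) and Lyz1 (0.15), none called there. Averaging probe sets ended 8 calls and moved 37 called named genes by over 1.5 times, and leaving out suffixed probe sets ended 5 calls beside those 3 and moved 11. The alternative without gPS replicates 1 and 2 together was chosen after seeing the data and ended 3 calls. Signals near background limit the falls that can be measured.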
